A study of Homo sapiens with 15 samples.

Results

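The bone morphogenetic protein (BMP) ligands BMP2, BMP4 and BMP7, the inhibitor of DNA binding proteins ID1, ID2, ID3 and ID4, and the inhibitory SMADs SMAD6 and SMAD7 were followed across knockdown and overexpression of p63 in MCF-10A, an established line of non-tumorigenic human mammary epithelial cells. The 9 genes were taken by symbol from 11963 genes on a 3′ expression array, with 1 probe set per gene, the brightest on average across the 15 arrays, and all 9 were measured. In the knockdown arm, cells carried an empty shRNA vector (shRNA vector), an shRNA against every isoform of p63 (shDBD) or an shRNA against the isoforms with a transactivating domain (shTA), with 2 arrays per group. In the overexpression arm, cells carried a vector control, the ΔNp63α isoform or the TAp63γ isoform, with 3 arrays per group. RNA was taken 48 hours after infection with a retrovirus or adenovirus, and the labels do not say which virus served which arm. The transcript of the targeted or introduced gene itself was not analysed here, so neither the knockdown nor the overexpression was checked on it. The labels call the replicates biological but do not say that they came from separate infections, so the p-values reflect only how far these samples spread, which may be technical. All cells are of 1 line, grown in its standard medium.

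BMP ligands are secreted proteins that bring type I and type II serine/threonine kinase receptors together. The active receptors phosphorylate SMAD1, SMAD5 and SMAD9, which enter the nucleus with SMAD4 and bind the regulatory DNA of target genes, and the ID genes are the most widely used readout of this signal. ID proteins have a helix-loop-helix domain but no DNA-binding region. They pair with E proteins such as TCF3, TCF4 and TCF12 and keep them and their tissue-specific partners off DNA, which delays differentiation in many cell types. SMAD6 and SMAD7 are themselves induced by BMP or TGF-beta signals and act back on the receptors. p63 is a transcription factor of the p53 family on which basal epithelial cells depend, and its ΔN isoforms lack the N-terminal transactivating domain of the TA isoforms.

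The promoters of ID1, ID2 and ID3 are shown because these 3 genes carried most of the differences reported here. Each sequence covers the 250 bases before the RefSeq transcription start on GRCh38.p14, given 5′ to 3′ along the gene, at chr20:31605039-31605288 on the plus strand for ID1, chr2:8681806-8682055 on the plus strand for ID2 and chr1:23559502-23559751 on the minus strand for ID3. Capitals mark matches, on either strand, to the SMAD-binding GC-rich motifs GGCGCC and GGAGCC and to the E-boxes CAGCTG and CACCTG. Overlapping matches were allowed.
ID1: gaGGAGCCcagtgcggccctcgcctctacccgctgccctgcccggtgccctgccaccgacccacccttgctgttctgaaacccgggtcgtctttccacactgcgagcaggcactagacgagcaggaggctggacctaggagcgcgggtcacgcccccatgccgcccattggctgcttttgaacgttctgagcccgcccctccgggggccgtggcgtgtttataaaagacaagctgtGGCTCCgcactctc
ID2: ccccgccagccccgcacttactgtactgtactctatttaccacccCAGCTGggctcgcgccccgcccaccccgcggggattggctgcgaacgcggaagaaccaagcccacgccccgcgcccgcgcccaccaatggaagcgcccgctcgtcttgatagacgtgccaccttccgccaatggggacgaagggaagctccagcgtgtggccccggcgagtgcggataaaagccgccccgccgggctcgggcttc
ID3: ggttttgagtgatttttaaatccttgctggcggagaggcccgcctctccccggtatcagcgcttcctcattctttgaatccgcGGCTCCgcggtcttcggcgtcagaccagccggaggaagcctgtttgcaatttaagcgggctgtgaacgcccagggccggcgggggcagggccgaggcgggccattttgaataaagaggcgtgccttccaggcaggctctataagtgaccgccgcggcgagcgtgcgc
GGAGCC matched the ID1 window at 248 and 14 bases before the start and the ID3 window at 167 bases before it, and 30.6% of the 35116 promoters in the table hold this motif. The ID2 window held a CAGCTG at 205 bases before the start, as 14% of promoters do, and no GGAGCC or GGCGCC. Among the other genes, the SMAD6 window held 3 GGAGCC matches and the ID4 window 2, with 1 match upstream of 1 start each of BMP4 and SMAD7. A CAGCTG also stood in the ID4 window. Upstream of BMP4, GGCGCC occurred before 1 of its starts, as in 16.4% of promoters. CACCTG occurred upstream of 1 start of SMAD7, as in 17.5% of promoters. The table held promoters of 7 of the 9 genes, without BMP2 and BMP7. A match describes these letters only; nothing in the arrays bears on binding there.

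The values were deposited on the log2 scale after robust multi-array averaging (RMA). The 2 arms had different array medians, 7.19 to 7.21 in the knockdown arm and 6.95 to 6.98 in the overexpression arm, so levels of the arms are given side by side and all comparisons stay within an arm. Replicate arrays correlated at 0.9925 to 0.998 over probe sets, and no pair of arrays was identical. Single values did repeat. Pairs of overexpression arrays shared 479 to 877 of 22277 values exactly, and pairs of knockdown arrays 20 to 44. Some were shared across groups and so enter the differences: ID4 read 5.38532 on arrays of all 3 overexpression groups. On all 3 arrays of a group, 149 probe sets (0.669%) repeated with the overexpression vector and 98 (0.44%) with TAp63γ. In the ΔNp63α group 128 (0.575%) did, ID3 and BMP4 among them. Their spread there reads as 0, and the cause of the repeats was not tested. The fit shares an estimate of a gene's spread among all groups. The repeats thus enter the standard errors (SE) and p-values of these genes in every comparison and can make them too small. Within the overexpression arm, 59.3% of the deviation of arrays from their group means lay along 1 component, with vector replicate 1, ΔNp63α replicate 3 and TAp63γ replicate 2 on one side, and the labels name no batch. The basal epithelial markers were high on every array, with 6 of 8 measured and array means of 11.6 to 12.7. They moved with the treatments: with shDBD 3 of 6 fell (50%, against 21.3% of all genes called in the test given below). Their median log2 fold change there was -0.42, and array means were 11.8 against 12.4 with the vector. With shTA 1 fell (16.7%, against 2.29% of all genes, median -0.01). With ΔNp63α 3 rose and 2 fell (83.3%, against 28.9%, median 0.32). With TAp63γ 4 rose and 1 fell (83.3%, against 43.4%, median 0.75), and array means were 12.5 to 12.7, above every vector array. Their part in the differences of the 9 genes was not tested. Of markers of other cells, 9 of 10 mesenchymal (array means 6.14 to 6.74), 7 of 9 immune (5.63 to 6.68) and 6 of 6 endothelial genes (5.25 to 6.29) were measured, and 1 to 3 of each list lay below the 20th percentile of their arrays in every group. These bulk arrays cannot tell apart fewer cells of a kind from less RNA per cell.

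Differences were tested with limma over all 11963 genes, with Benjamini-Hochberg adjustment within each comparison, and a gene is called where the adjusted p is under 0.05. With shDBD, 4 of the 9 genes were called, all higher (BMP2, ID1, ID2 and ID3), against 21.3% of all genes called and 11.1% called higher. With shTA, only ID2 was called, and it was higher, against 2.29% of all genes called and 1.44% called higher. The hairpins set against each other gave the same 4 genes as shDBD, all higher with shDBD, where 18.4% of all genes were called and 9.14% were higher. With ΔNp63α, ID2 and ID3 were called higher, and this count of 2 of 9 is near the background of 28.9% called and 12.3% higher. With TAp63γ, ID2, ID3 and SMAD7 were higher and ID1 was lower. This count of 4 of 9 (44.4%) is near the background of 43.4% called, with 20.5% higher and 22.8% lower. Between the 2 isoforms, ID1 was higher and ID2, ID3 and SMAD7 were lower with ΔNp63α than with TAp63γ. This count of 4 of 9 (44.4%) is also near the background of 39.8% called, with 19.2% higher and 20.6% lower. The median log2 fold change of the 9 genes was 0.20 with shDBD, -0.09 with shTA, 0.07 with ΔNp63α and 0.07 with TAp63γ, and that of all genes was 0.00, -0.01, -0.00 and -0.02. BMP4, BMP7, ID4 and SMAD6 were called in 0 of the 6 comparisons. Before adjustment, 0 of these 4 genes had a limma p under 0.05 against a vector, and BMP4 between the hairpins and SMAD6 between the isoforms did. With 2 arrays per group, a lack of overlap between groups is common. Of 73 other pathway genes, described below, 44 did not overlap with vector under shDBD, where 13 were called. Under shTA 34 of them did not, where 3 were called. The share over all genes is not given here.

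**Figure D1:**
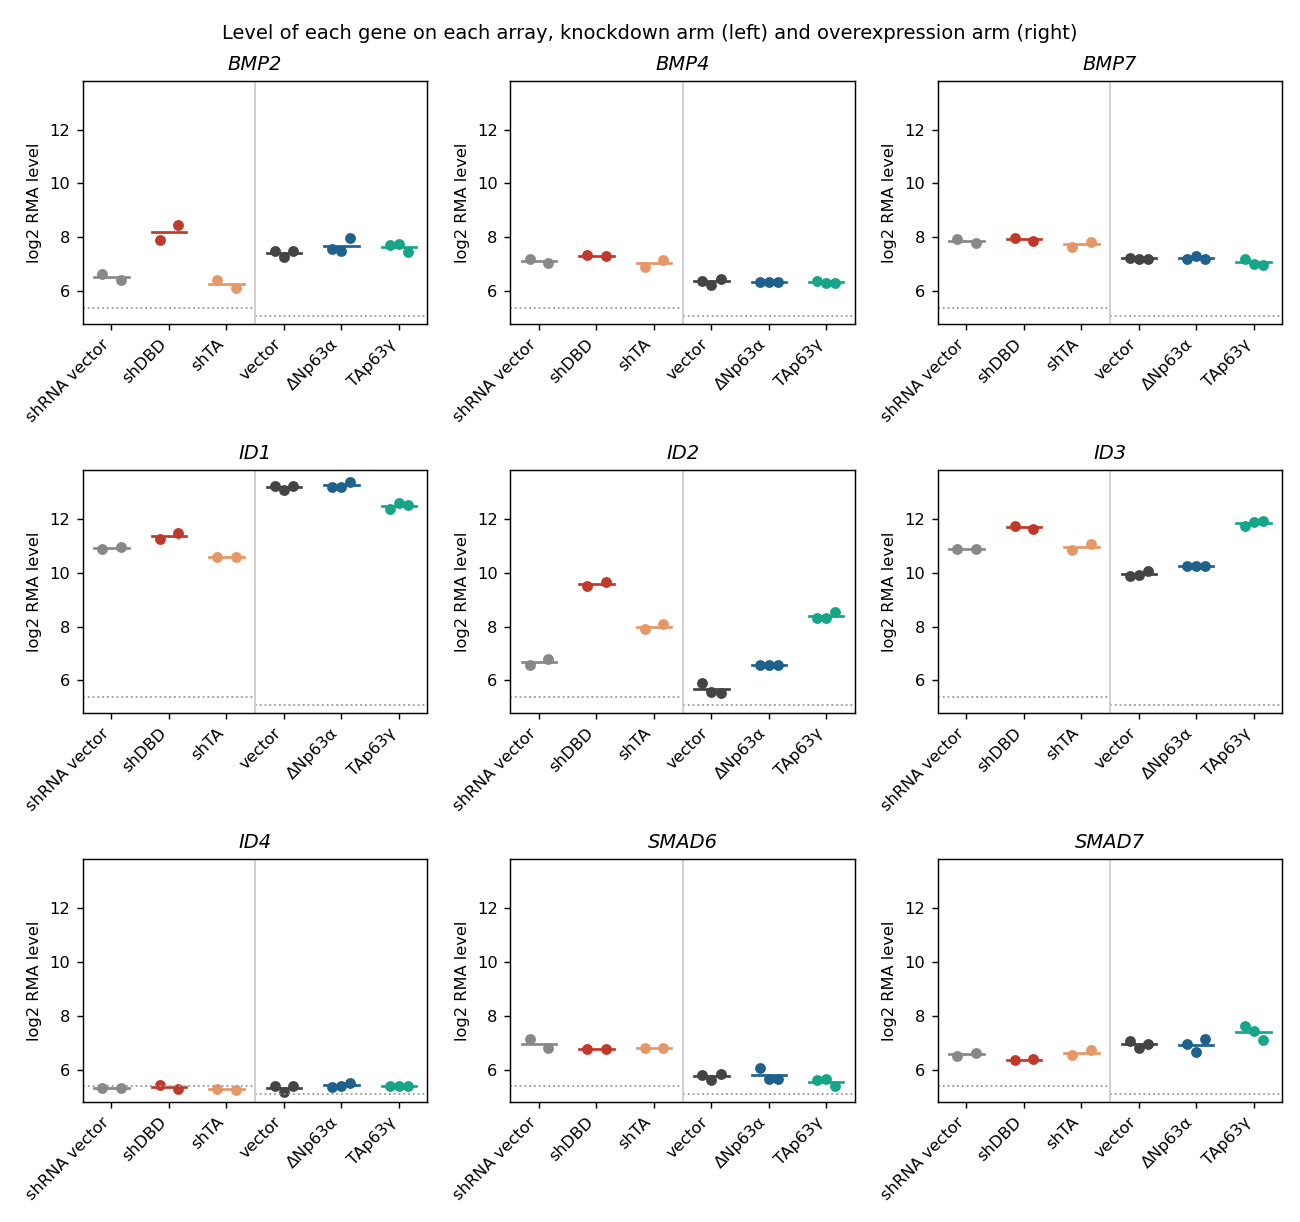
log2 RMA level of each of the 9 genes (vertical axis) on each array, by group along the horizontal axis, with the knockdown arm left and the overexpression arm right of the grey line; points are arrays, bars are group means, and dotted lines are the mean 20th percentile of an arm's arrays. ID2 rose from 6.69 to 9.57 with shDBD and from 5.68 to 8.40 with TAp63γ, and the ID4 arrays lay at 5.18 to 5.49.

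BMP2, a ligand of the BMP2/4 branch, rose when all isoforms of p63 were targeted and not when the TA isoforms were. Its level (probe set 205290_s_at) was 6.64 and 6.41 with the shRNA vector, 7.90 and 8.48 with shDBD, and 6.44 and 6.11 with shTA. Both shDBD arrays stood above every other array of the arm, and the shTA arrays overlapped those of the vector. The rise with shDBD was 1.66 ± 0.19 (log2 fold change ± SE, n = 2 per group), or 3.16-fold, with a limma adjusted p of 1.06e-05, and it stood at place 23 of 11963 genes from the highest. With shTA the difference from vector was -0.25 ± 0.19 (95% interval -0.65 to 0.15). The hairpins themselves differed by 1.91 ± 0.19 (adjusted p = 3.57e-06 by limma), at place 8 of all genes from the highest. In the overexpression arm BMP2 read 7.48, 7.27 and 7.50 with the vector, 7.57, 7.50 and 7.97 with ΔNp63α, and 7.73, 7.75 and 7.47 with TAp63γ. These groups overlapped. The differences from vector were 0.26 ± 0.15 (interval -0.07 to 0.59) with ΔNp63α and 0.23 ± 0.15 (interval -0.10 to 0.56) with TAp63γ, and neither passed. The other BMP2 probe set gave 1.81 with shDBD (adjusted p = 9.53e-05 by limma), 0.05 with shTA, 0.16 with ΔNp63α and 0.36 with TAp63γ.

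BMP4 and BMP7, ligands that share the BMP type I receptors, moved little. BMP4 (211518_s_at) read 7.19 and 7.05 with the shRNA vector, 7.33 and 7.30 with shDBD, and 6.91 and 7.16 with shTA. The shDBD arrays lay just above the others. The difference from vector was 0.20 ± 0.097 (interval -0.01 to 0.40, adjusted p = 0.19 by limma), and that from shTA was 0.28 ± 0.097 (adjusted p = 0.056 by limma). The latter passed under several alternatives, among them without shTA replicate 2 (0.41, adjusted p = 0.0233 by limma) and without overexpression vector replicate 2 (adjusted p = 0.0467). In the overexpression arm BMP4 read 6.38, 6.25 and 6.47 with the vector, 6.34 on all 3 ΔNp63α arrays, and 6.40, 6.32 and 6.31 with TAp63γ, and both differences from vector were -0.03 ± 0.079. BMP7 (211260_at) read 7.96 and 7.79, 7.99 and 7.87, and 7.64 and 7.84 in the same order of knockdown groups. Its overexpression levels were 7.25, 7.20 and 7.20 with the vector, 7.18, 7.31 and 7.20 with ΔNp63α, and 7.22, 7.03 and 6.98 with TAp63γ. The groups overlapped with their vectors in each case. The intervals of its differences from vector were -0.17 to 0.27 with shDBD, -0.36 to 0.08 with shTA, -0.17 to 0.19 with ΔNp63α and -0.32 to 0.04 with TAp63γ. The TAp63γ difference of -0.14 ± 0.084 passed with the mean of the 4 BMP7 probe sets (-0.15, adjusted p = 0.0429 by limma).

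ID2 was higher in all 4 treated groups than in their vectors. Its level (201565_s_at) was 6.57 and 6.81 with the shRNA vector, 9.51 and 9.64 with shDBD, and 7.91 and 8.09 with shTA. In the overexpression arm it was 5.89, 5.59 and 5.55 with the vector, 6.56, 6.56 and 6.57 with ΔNp63α, and 8.32, 8.34 and 8.53 with TAp63γ. The order was vector, shTA, shDBD in the former arm and vector, ΔNp63α, TAp63γ in the latter, with no overlap between any 2 groups of an arm. The rise was 2.88 ± 0.12 (7.38-fold, limma adjusted p = 1.37e-09) with shDBD, place 3 of 11963 genes from the highest. With shTA it was 1.31 ± 0.12 (2.48-fold, limma adjusted p = 2.02e-05), place 12. With TAp63γ it was 2.72 ± 0.10 (6.59-fold, limma adjusted p = 6.78e-12), place 64, and with ΔNp63α 0.89 ± 0.10 (1.85-fold, limma adjusted p = 5.8e-06), place 307. Both neighbours at the top of the orders differed: shDBD exceeded shTA by 1.57 ± 0.12 (limma adjusted p = 3.36e-07), and ΔNp63α lay 1.83 below TAp63γ (-1.83 ± 0.10, limma adjusted p = 1.84e-09). The 3 ΔNp63α values had an SD of 0.00624, far under that of the other groups (0.0941 to 0.184).

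The size of the ID2 difference depended on the probe set. The other probe set with ID2 as its only symbol (201566_x_at, with a lower level) gave 1.52 with shDBD (limma adjusted p = 5.25e-06), 1.55 with TAp63γ (limma adjusted p = 9.51e-08) and 0.45 with ΔNp63α (limma adjusted p = 0.0146). With shTA it gave 0.49 and did not pass (limma adjusted p = 0.145). A probe set that lists ID2 together with the ID2B pseudogene was not tested, and its differences were 0.77 with shDBD, 0.05 with shTA, 0.10 with ΔNp63α and 0.62 with TAp63γ. DCN, a matrix proteoglycan of fibroblasts, moved in the knockdown arm too, by 2.37 with shDBD (limma adjusted p = 1.04e-08) and 0.83 with shTA (limma adjusted p = 0.0028). Leaving out shRNA vector replicate 2 ended the latter call (0.74, adjusted p = 0.0621), as did leaving out shTA replicate 2 (0.74, adjusted p = 0.0658). CD14, a monocyte marker that some epithelial cells also express, rose by 1.27 with shDBD (limma adjusted p = 7.94e-07). With shDBD, in all, 1 of 9 mesenchymal markers rose and 1 fell (22.2%), 2 of 7 immune markers rose (28.6%) and 2 of 6 endothelial markers rose (33.3%), against 21.3% of all genes called. With shTA only DCN was called among the markers of these 3 lists. With TAp63γ 2 mesenchymal markers rose (22.2%), 1 immune marker fell (14.3%) and 1 endothelial marker fell (16.7%), against 43.4% of all genes. With ΔNp63α the counts were 1 risen and 1 fallen (22.2%), 1 fallen (14.3%) and 1 risen (16.7%) in the same order, against 28.9%. The part of other cells in the ID2 result was not tested.

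**Figure D2:**
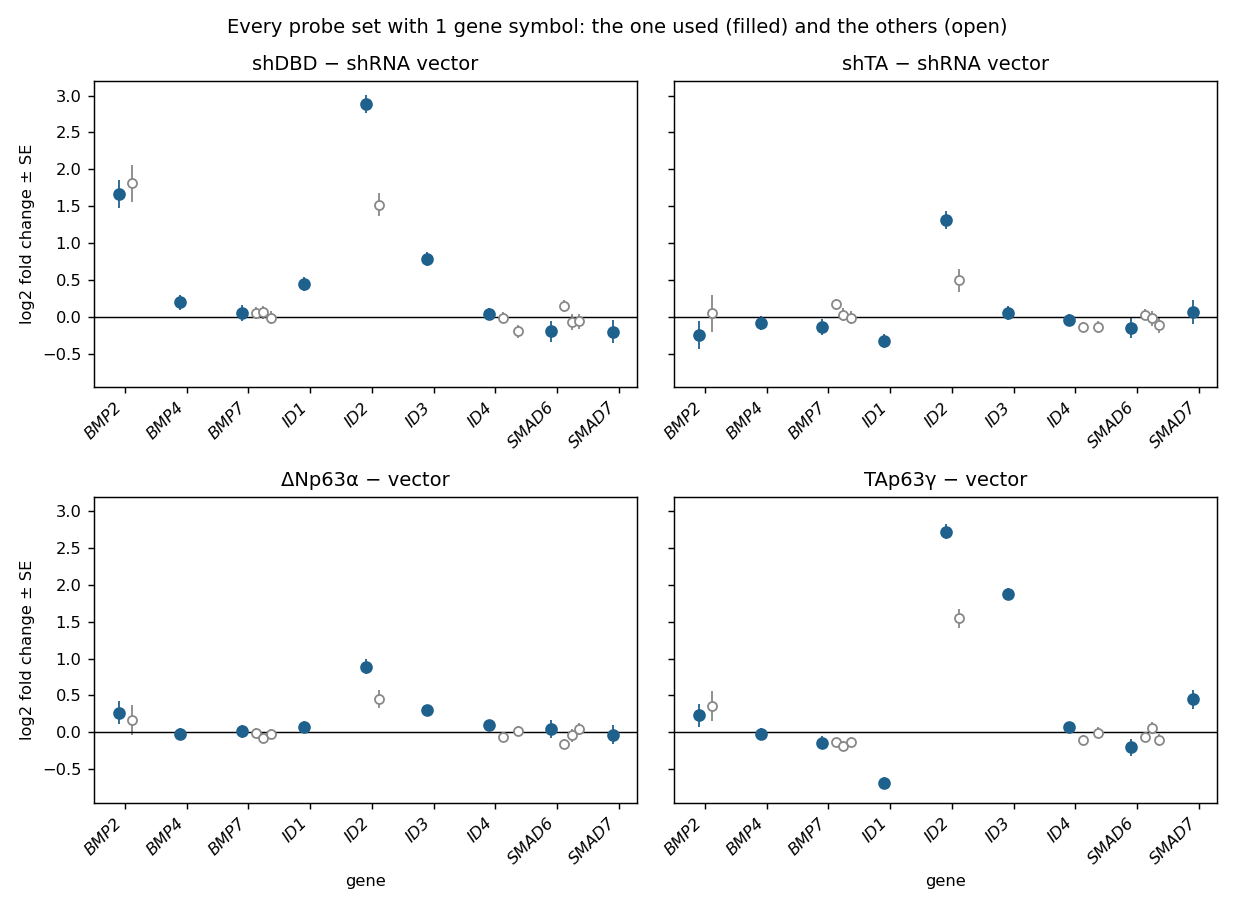
log2 fold change ± SE (vertical axis) of every probe set with a single gene symbol for the 9 genes (horizontal axis), in the 4 comparisons with a vector; filled points are the probe sets used and open points the others. Both BMP2 probe sets rose with shDBD (1.66 and 1.81), and the ID2 probe sets differed in size (2.88 and 1.52) but not in direction.

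ID3, which like ID1 responds directly to BMP signals in many cells, rose with shDBD, ΔNp63α and TAp63γ. It read (207826_s_at) 10.89 on both shRNA vector arrays, 11.75 and 11.60 with shDBD, and 10.83 and 11.05 with shTA. The shDBD arrays stood apart from the rest, and the shTA arrays lay on both sides of the vector. The rise with shDBD was 0.78 ± 0.096 (1.72-fold, limma adjusted p = 2.27e-05), and shTA differed from vector by 0.05 ± 0.096 (interval -0.16 to 0.25). Between the hairpins the difference was 0.73 ± 0.096 (limma adjusted p = 5.62e-05). In the overexpression arm ID3 read 9.89, 9.92 and 10.05 with the vector, 10.25 on all 3 ΔNp63α arrays, and 11.71, 11.87 and 11.91 with TAp63γ. No groups overlapped. The rise was 1.88 ± 0.078 (3.68-fold, limma adjusted p = 3.13e-11) with TAp63γ, place 135 of all genes, and 0.30 ± 0.078 (1.23-fold, limma adjusted p = 0.00862) with ΔNp63α. The isoforms differed by -1.58 ± 0.078 (ΔNp63α minus TAp63γ, limma adjusted p = 6.18e-10).

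ID1 did not follow its relatives in the overexpression arm. Its level (208937_s_at) was 13.22, 13.08 and 13.22 with the vector, 13.17, 13.17 and 13.37 with ΔNp63α, and 12.37, 12.57 and 12.51 with TAp63γ. All 3 TAp63γ arrays lay below the other 6, and the vector and ΔNp63α arrays overlapped. ID1 fell with TAp63γ (-0.69 ± 0.078, 1.61-fold lower, limma adjusted p = 2.88e-06), where ID2 and ID3 rose, and its difference with ΔNp63α was 0.07 ± 0.078 (interval -0.10 to 0.24). Between the isoforms ID1 was 0.76 ± 0.078 higher with ΔNp63α (limma adjusted p = 1.96e-06). In the knockdown arm it read 10.88 and 10.94 with the shRNA vector, 11.24 and 11.46 with shDBD, and 10.58 and 10.57 with shTA. Here no groups overlapped, as is common with 2 arrays per group: shDBD was highest and shTA lowest. The rise with shDBD was 0.44 ± 0.096 (1.36-fold, limma adjusted p = 0.00331), and it did not pass without shDBD replicate 2 (0.33, limma adjusted p = 0.0632). The shTA difference of -0.33 ± 0.096 did not pass (limma adjusted p = 0.0948), but it did with the arms fitted separately (limma adjusted p = 0.0196) and without ΔNp63α replicate 3 (limma adjusted p = 0.0381). The hairpins differed by 0.77 ± 0.096 (limma adjusted p = 3.4e-05).

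ID4, which is expressed in mammary basal and progenitor cells in vivo, was near the low end of the arrays. It read (209293_x_at) 5.26 to 5.42 over the 6 knockdown arrays, where each group mean fell below the 20th percentile of its arrays, and 5.18 to 5.49 over the 9 overexpression arrays, at the percentiles 21.7 to 25.5. At such levels these arrays say little about a difference. The largest difference from a vector was 0.10 ± 0.068 with ΔNp63α (interval -0.05 to 0.24, limma adjusted p = 0.337). The other 2 ID4 probe sets lay lower still, at group means of 3.49 to 3.87.

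**Figure D3:**
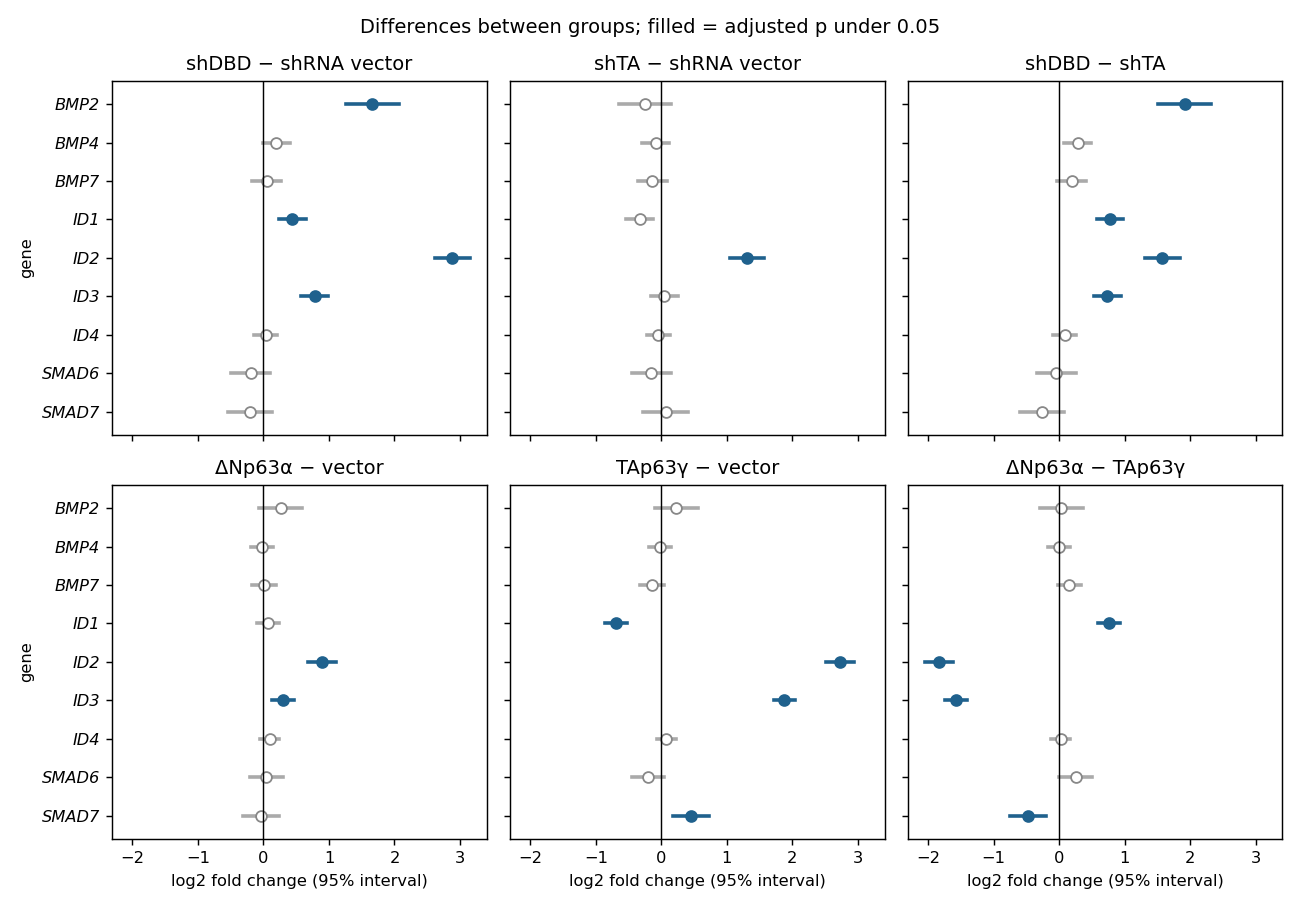
log2 fold change with its 95% interval (horizontal axis) for each of the 9 genes (vertical axis) in the 6 comparisons; filled points have a limma adjusted p under 0.05. ID1, ID2, ID3 and BMP2 were higher with shDBD than with shTA, and ID1 differed from ID2 and ID3 in sign between ΔNp63α and TAp63γ (0.76 against -1.83 and -1.58).

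SMAD7, which blocks type I receptors and recruits SMURF ubiquitin ligases to them, rose with TAp63γ. It read 7.07, 6.80 and 6.95 with the overexpression vector, 6.96, 6.64 and 7.12 with ΔNp63α, and 7.61, 7.44 and 7.11 with TAp63γ. All TAp63γ arrays exceeded the vector arrays, the lowest by little, and 1 of them lay level with the highest ΔNp63α array. The rise was 0.45 ± 0.13 (1.36-fold, limma adjusted p = 0.0103). Without TAp63γ replicate 1 it was 0.34 and did not pass (limma adjusted p = 0.0607). ΔNp63α differed from TAp63γ by -0.48 ± 0.13 (limma adjusted p = 0.00759), and it differed from vector by -0.03 ± 0.13 (interval -0.31 to 0.24). In the knockdown arm SMAD7 read 6.51 and 6.62, 6.34 and 6.38, and 6.54 and 6.72 with vector, shDBD and shTA. Neither difference passed, with intervals of -0.54 to 0.14 and -0.27 to 0.40.

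SMAD6, which acts mainly on the BMP branch, was called in 0 comparisons. It read 7.12 and 6.79 with the shRNA vector, 6.76 on both shDBD arrays, and 6.82 and 6.79 with shTA. In the overexpression arm it read 5.81, 5.61 and 5.83 with the vector, 6.06, 5.67 and 5.66 with ΔNp63α, and 5.60, 5.67 and 5.38 with TAp63γ. In each arm 1 array stood high, shRNA vector replicate 1 and ΔNp63α replicate 1. The differences from vector were -0.19 ± 0.14 with shDBD (interval -0.50 to 0.11), -0.15 ± 0.14 with shTA (interval -0.45 to 0.15), 0.05 ± 0.12 with ΔNp63α (interval -0.20 to 0.29) and -0.20 ± 0.12 with TAp63γ (interval -0.45 to 0.04). For this probe set (209886_s_at), a rise beyond 0.29 on the log2 scale lay outside the interval of all 4 comparisons. The other SMAD6 probe sets were dimmer and passed in no comparison. With shDBD they gave 0.14, -0.07 and -0.06.

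The other genes of the pathway were described from a list of 86, of which 73 were measured. With shDBD 5 rose and 8 fell (17.8%, against 21.3% of all genes), and the count went from 13 to 7 without shRNA vector replicate 1. With shTA 2 rose and 1 fell (4.11%, against 2.29%), a count that became 6 without ΔNp63α replicate 3. With ΔNp63α 12 rose and 8 fell (27.4%, against 28.9%), and with TAp63γ 15 rose and 14 fell (39.7%, against 43.4%). Between the hairpins 3 were higher and 6 lower with shDBD (12.3%, against 18.4%), a count of 9 that fell to 5 without shDBD replicate 1 or without shTA replicate 1. Between the isoforms 14 were higher and 14 lower (38.4%, against 39.8%). The shares of the whole list lie near those of all genes, and the median log2 fold change of the list lay between -0.03 and 0.03 in the 6 comparisons. In each role and each comparison with a vector, the called genes with the largest rise and the largest fall are named.

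**Figure D4:**
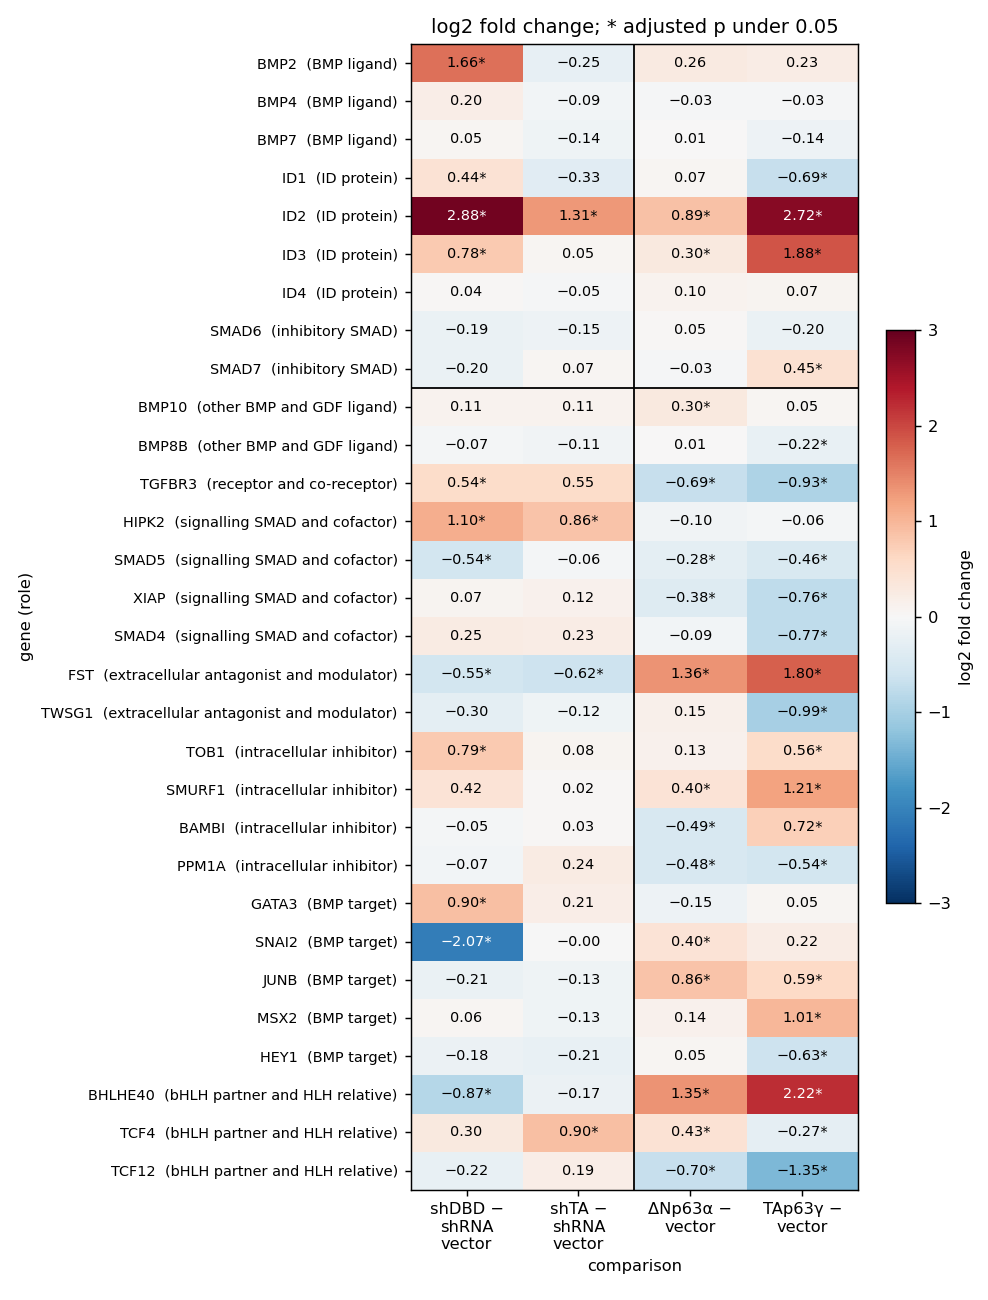
log2 fold change in the 4 comparisons with a vector (columns) for the 9 genes above the line and the named genes of the pathway list below it, with the role of each in brackets; red is higher and blue lower than the vector, and an asterisk marks a limma adjusted p under 0.05. ID2 is called in all 4 columns, and FST is lower in both knockdown columns and higher in both overexpression columns.

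Of 13 other BMP and GDF ligands, 0 were called with either hairpin, against 21.3% of all genes with shDBD and 2.29% with shTA. Before adjustment, 1 of 13 had a limma p under 0.05 with shDBD and 0 with shTA. BMP10, a ligand of the heart, was called with ΔNp63α at a low level (5.51 against 5.21; 0.30 ± 0.073, limma adjusted p = 0.00475). BMP8B was called lower with TAp63γ at a similarly low level (-0.22 ± 0.084, limma adjusted p = 0.048), and the other BMP8B probe set gave 0.08 (limma adjusted p = 0.599). This call was lost without overexpression vector replicate 2 (adjusted p = 0.185) or 3 (0.0603), without TAp63γ replicate 2 (0.139) or 3 (0.184), without ΔNp63α replicate 2 (0.0586) and, at 0.0525 to 0.0597, without any 1 of the 6 knockdown arrays. Of 9 receptors and co-receptors measured of 13, 1 rose with shDBD (11.1%, against 21.3% of all genes). With ΔNp63α 3 fell (33.3%, against 28.9%), and with TAp63γ 3 fell (33.3%, against 43.4%). TGFBR3, the betaglycan co-receptor that binds TGF-beta, inhibin and BMP ligands, fell with ΔNp63α (-0.69 ± 0.12, limma adjusted p = 0.000511) and TAp63γ (-0.93 ± 0.12, limma adjusted p = 1.27e-05). It rose with shDBD by 0.54 ± 0.15 (limma adjusted p = 0.017), which did not pass without shRNA vector replicate 1 (adjusted p = 0.0726), shRNA vector replicate 2 (0.0941) or shDBD replicate 2 (0.201). With shTA it differed by 0.55 and passed only without ΔNp63α replicate 1 (adjusted p = 0.0369) or 3 (0.0427), with the arms fitted separately (0.00793) or in a fit with the first component of the deviations (0.00237).

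Of the 9 signalling SMADs and cofactors, 2 rose and 1 fell with shDBD (33.3%, against 21.3% of all genes). With shTA 1 rose (11.1%, against 2.29%). With ΔNp63α 2 fell (22.2%, against 28.9%), and with TAp63γ 4 fell (44.4%, against 43.4%). SMAD5, a receptor-activated SMAD of the BMP branch, fell with shDBD (-0.54 ± 0.11, limma adjusted p = 0.0022) and TAp63γ (-0.46 ± 0.091, limma adjusted p = 0.000549). Its difference with ΔNp63α (-0.28 ± 0.091, limma adjusted p = 0.028) did not pass without overexpression vector replicate 2 (adjusted p = 0.123) or ΔNp63α replicate 3 (0.117), with the arms fitted separately (0.0648), with quantile normalization within each arm (0.0513) or with the other SMAD5 probe set (-0.34, adjusted p = 0.151). SMAD4, the shared partner SMAD, fell with TAp63γ (-0.77 ± 0.17, limma adjusted p = 0.00172), and its other, dim probe set gave -0.17. HIPK2, a nuclear kinase that binds SMADs and p53, rose with shDBD (1.10 ± 0.11, limma adjusted p = 1.88e-06) and shTA (0.86 ± 0.11, limma adjusted p = 0.000228). Its other probe set gave 0.09 and -0.02 there and did not pass. XIAP, which links the BMP receptor to TAK1, fell with TAp63γ (-0.76 ± 0.10, limma adjusted p = 1.41e-05) and ΔNp63α (-0.38 ± 0.10, limma adjusted p = 0.0109). The ΔNp63α value was at the threshold without overexpression vector replicate 1 (-0.32, adjusted p = 0.05), and the other XIAP probe set gave -0.02 there and -0.31 with TAp63γ.

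Of 13 extracellular antagonists and modulators measured of 19, 3 fell with shDBD (23.1%, against 21.3% of all genes). With shTA 1 fell (7.69%, against 2.29%). With ΔNp63α 2 rose (15.4%, against 28.9%), and with TAp63γ 5 rose and 1 fell (46.2%, against 43.4%). FST, follistatin, binds activins and, less tightly, BMPs. It fell with shDBD (-0.55 ± 0.12, limma adjusted p = 0.00285) and rose with ΔNp63α (1.36 ± 0.095, limma adjusted p = 3.31e-08) and TAp63γ (1.80 ± 0.095, limma adjusted p = 5.07e-10). With shTA it fell by 0.62 (-0.62 ± 0.12, limma adjusted p = 0.00988), which did not pass without any 1 of the 4 arrays, shRNA vector replicate 1 (adjusted p = 0.0734) or replicate 2 (0.108) or shTA replicate 1 (0.0637) or replicate 2 (0.104). A dimmer FST probe set gave -0.08, -0.18, 0.83 and 1.55 in these comparisons, in the order shDBD, shTA, ΔNp63α and TAp63γ. TWSG1, twisted gastrulation, which binds BMPs together with chordin, fell with TAp63γ (-0.99 ± 0.10, limma adjusted p = 8.14e-07).

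Of the 9 intracellular inhibitors, 1 rose with shDBD (11.1%, against 21.3% of all genes). With ΔNp63α 2 rose and 2 fell (44.4%, against 28.9%), and with TAp63γ 3 rose and 2 fell (55.6%, against 43.4%). BAMBI, a receptor-like protein without a kinase domain that blocks TGF-beta and BMP receptors, was lower with ΔNp63α (-0.49 ± 0.092, limma adjusted p = 0.000715) and higher with TAp63γ (0.72 ± 0.092, limma adjusted p = 8.49e-06). The 2 isoforms differed by -1.22 (ΔNp63α minus TAp63γ, limma adjusted p = 6.34e-08). SMURF1, a ubiquitin ligase for BMP SMADs and receptors, rose with TAp63γ (1.21 ± 0.13, limma adjusted p = 1.08e-06). Its call with ΔNp63α (0.40 ± 0.13, limma adjusted p = 0.0251) did not hold without overexpression vector replicate 1 (adjusted p = 0.0841) or 3 (0.115) or without ΔNp63α replicate 1 (0.0846) or 2 (0.0788), nor with the arms fitted separately (0.0703). The other 2 SMURF1 probe sets gave -0.06 and 0.13 with ΔNp63α and did not pass (limma adjusted p = 0.784 and 0.638), and 0.66 and 0.79 with TAp63γ, which passed (0.000422 and 0.00108). TOB1, an antiproliferative protein that binds SMADs, rose with shDBD (0.79 ± 0.19, limma adjusted p = 0.00815), a call that ended on leaving out shDBD replicate 2 (adjusted p = 0.0786) or shRNA vector replicate 1 (0.0813). In a fit of all probe sets, TOB1 also rose with TAp63γ (0.56, limma adjusted p = 0.00984). PPM1A, a phosphatase of SMADs, fell with TAp63γ (-0.54 ± 0.099, limma adjusted p = 0.000329). It also fell with ΔNp63α in the fit of all probe sets (-0.48, limma adjusted p = 0.00209). Its other probe set gave -0.06 with ΔNp63α and did not pass (limma adjusted p = 0.833).

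Of 13 further BMP targets measured of 15, 1 rose and 1 fell with shDBD (15.4%, against 21.3% of all genes). With shTA 0 were called by limma, against 2.29%, and 1 had an unadjusted p under 0.05. With ΔNp63α 3 rose (23.1%, against 28.9%), and with TAp63γ 4 rose and 1 fell (38.5%, against 43.4%). With shDBD GATA3, a regulator of luminal mammary cells, rose (0.90 ± 0.092, limma adjusted p = 3.65e-06, and 0.59 and 0.46 with its other probe sets) and SNAI2, a zinc finger factor of basal cells, fell (-2.07 ± 0.12, limma adjusted p = 1.19e-08). In a fit of all probe sets, SNAI2 rose with ΔNp63α (0.40, limma adjusted p = 0.0056). JUNB, an AP-1 subunit, rose with ΔNp63α (0.86 ± 0.13, limma adjusted p = 0.000112). It also rose with TAp63γ (0.59, limma adjusted p = 0.00175 in the fit of all probe sets). With TAp63γ MSX2, a homeobox factor and classical BMP target, rose (1.01 ± 0.13, limma adjusted p = 7.22e-06) and HEY1, a Notch and BMP target, fell (-0.63 ± 0.086, limma adjusted p = 2.07e-05). The other 2 MSX2 probe sets gave 0.90 and, for one near the bottom of the arrays, -0.00. With shDBD MSX2 and HEY1 differed from vector by 0.06 and -0.18 and did not pass. The brighter of the other MSX2 probe sets gave 0.28 there (limma adjusted p = 0.21).

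The basic helix-loop-helix (bHLH) list holds the E proteins that ID proteins bind and related repressors, with 7 of 8 genes measured. Of these, 3 fell with shDBD (42.9%, against 21.3% of all genes), 1 rose with shTA (14.3%, against 2.29%), 4 rose and 1 fell with ΔNp63α (71.4%, against 28.9%), and 3 rose and 2 fell with TAp63γ (71.4%, against 43.4%). These shares of 7 genes stand above those of all genes, and the list was not tested. BHLHE40, a repressor of the clock and hypoxia programmes, rose with TAp63γ (2.22 ± 0.14, limma adjusted p = 3.44e-09) and ΔNp63α (1.35 ± 0.14, limma adjusted p = 2.18e-06) and fell with shDBD (-0.87 ± 0.17, limma adjusted p = 0.00142). The E protein TCF12 fell with TAp63γ (-1.35 ± 0.14, limma adjusted p = 1.53e-06) and ΔNp63α (-0.70 ± 0.14, limma adjusted p = 0.0017); its other, dim probe set gave -0.21 and 0.16. The E protein TCF4 rose with shTA (0.90 ± 0.11, limma adjusted p = 0.000199), and all 7 TCF4 probe sets were higher there. Of the other 6, 3 passed (0.53, 0.70 and 0.54, with limma adjusted p of 0.00371, 0.00285 and 0.0485). The remaining 3 did not (0.22, 0.50 and 0.38, with limma adjusted p of 0.54, 0.0718 and 0.521). In a fit of all probe sets, the TCF4 probe set used rose with ΔNp63α (0.43, limma adjusted p = 0.0018). It fell with TAp63γ (-0.27, limma adjusted p = 0.025). The latter call ended without overexpression vector replicate 1 (limma adjusted p = 0.0896) or TAp63γ replicate 1 (0.0961).

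For the 3 genes with a difference of at least 1 from a vector, the genes most like them were found by the root mean square (RMS) difference over the 4 log2 fold changes against a vector. Comparisons of an arm share their vector arrays, so this is a description. Nearest to BMP2 were SV2B (RMS difference 0.124), ANKRD2 (0.143) and ZNF281 (0.188), which differed from vector by 1.76, 1.57 and 1.39 with shDBD and by -0.18, -0.19 and -0.13 with shTA. Nearest to ID2 were CFB (0.554), CDKN1C (0.614) and H1-2 (0.745), all farther from it than the neighbours of the other 2 genes from theirs. CFB, complement factor B, differed by 2.28 with shDBD, 1.48 with shTA, 1.63 with ΔNp63α and 2.20 with TAp63γ. CDKN1C, an inhibitor of cyclin-dependent kinases, differed by 2.51, 1.26, 0.57 and 1.60 in the same order. Nearest to ID3 were CLU (0.148), EFNA1 (0.157) and GAA (0.169), which differed from vector by 1.80, 1.91 and 1.87 with TAp63γ and by 0.81, 0.79 and 0.71 with shDBD.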

How the data were processed

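MCF-10A cells were profiled on 15 Affymetrix 3′ expression arrays in 6 groups. The authors summarized the arrays with RMA, per the submitters' processing notes, and deposited log2 values; further settings were not given in the sources used. No value was shared by arrays of different arms, which would be so if the arms were summarized separately. Gene symbols came from the platform annotation: of 22277 probe sets, 62 were array controls, 19064 had 1 symbol, 1043 several and 2108 were not listed. Each gene took the single-symbol probe set with the highest mean, which gave 11963 genes. limma 3.58.1 in R 4.3.3 fitted a mean per group over all 15 arrays, with a trend in the variance (residual degrees of freedom 9, prior 5.87); tests were two-sided and adjusted by Benjamini-Hochberg at 0.05. The script was tested on simulated data. The number of arrays limits the precision. The genes, lists and tests were chosen with earlier results of these data known. Pathway genes were named as the called gene with the largest rise and fall per role and comparison with a vector, and like genes as the 3 nearest over the 4 comparisons with a vector. Alternatives covered scaling, arms fitted separately, probe set choice, low values, the variance model, a replicate block, a threshold of 0.01 and leaving out each array, and 1 covariate was added after the data were seen. Same-numbered arrays did not deviate together (correlations of -0.628 to 0.476 in the overexpression arm and 0.00137 to 0.069 in the knockdown arm). Promoters came from RefSeq on GRCh38.p14.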

Additional observations from a re-analysis of the deposited data

How the results depend on the processing

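Over the named genes, 3589 of 3690 values with 1 array left out kept their side of the threshold. Of the rest, 79 lost the call, 22 gained one and 0 reversed. Over the other settings 2635 of 2706 kept it, 32 lost the call and 38 gained one. There 1 reversed, BMP8B with TAp63γ (0.0769 with the probe set of the largest range). A change of sign counted as reversed only where a value was called. Small differences could thus change sign and count as kept, as BMP7 with shDBD did (-0.03 to 0.14 with 1 array left out). Leaving out an array outside the compared groups cannot change a fold change, only its SE and p-value. Much of this agreement was therefore fixed in advance. Where a count moved by over 1.5 times, it did as follows. With the arms fitted separately, the pathway list gave 24 calls for shDBD, 8 for shTA and 16 between the hairpins, the 9 genes 2 for shTA, and all genes 1064 for shTA and 3359 between the hairpins. With the first component of the within-group deviations of the overexpression arrays as a covariate, chosen after seeing the data, these were 25, 7, 15, 2, 1271 and 3441, and all genes gave 3822 for shDBD. At an adjusted p under 0.01, all genes gave 1645 for shDBD, 108 for shTA and 1411 between the hairpins, and the pathway list 18 between the isoforms. With the replicate number as a block, all genes gave 150 for shTA, and no call of the 9 genes changed, but SMAD5 with ΔNp63α (adjusted p = 0.0534) and, between the isoforms, TOB1 (0.055) and GATA3 (0.0749) lost theirs; same-numbered arrays share only a number, and 2 of 9 overexpression arrays correlated best with their own number. With 1 array left out, the counts ranged over 7 to 19 (pathway list) and 1650 to 2968 (all genes) for shDBD, 1 to 2 (the 9 genes), 2 to 6 (pathway list) and 87 to 472 (all genes, 274 with every array) for shTA, and 5 to 10 (pathway list) and 1348 to 2588 (all genes) between the hairpins. The lowest shDBD counts came without shRNA vector replicate 1. Without either shRNA vector array shTA gave 90 and 95, without either shTA array 131 and 87, and without ΔNp63α replicate 3 it gave 472. The cause was not tested. Values near the 20th percentile, as for ID4, limit what a difference can show.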

Other observations

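The difference between the 3′ and 5′ actin control probe sets was -0.0868 ± 0.0098 (SD, n = 2) with the shRNA vector, 0.0668 ± 0.026 with shDBD and 0.102 ± 0.14 with shTA, and 0.170 ± 0.058 (SD, n = 3), 0.162 ± 0.059 and 0.0772 ± 0.066 with vector, ΔNp63α and TAp63γ. It was thus lower in the shRNA vector arrays than in the arrays in which ID2 was higher, and lower, with overlap, with TAp63γ than with its vector, where ID2 was higher too. Its part in the ID2, ID3 and BMP2 differences was not tested.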
